A study of Saccharomyces cerevisiae with 12 samples.

Results

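The genes described here are the chromosome III genes on both sides of the *MAT* locus, where the HO endonuclease cuts. They were taken by position and not by any measured value: every entry of the count table whose systematic name begins with YCR and carries a number from 022 to 060, with suffixed names included. This gave 41 of the 7123 genes in the table, and 37 of them were found in the R64 annotation of *S. cerevisiae*, where they span chrIII:157421-224734. RNA was sequenced from W303 derivatives in 4 groups with 3 libraries each. WT cells and *rad30Δ* cells, which lack the translesion polymerase Polη, were grown in 2% raffinose and arrested in G2/M with 80 µg/ml benomyl for 3 hours. In the other 2 groups, 2% galactose was then added to the arrested cells of each strain for 1 hour. Galactose induced HO from the *GAL* promoter, and with it the DSB at *MAT*. Many strains of the study also carry *SMC1-MYC* under this promoter, and all of those listed also carry a temperature-sensitive *smc1* allele. Whether the sequenced strains do is not stated, but *SMC1* reads rose after induction in both strains, as given below. Galactose was never given without HO induction in these libraries, so effects of the break, of galactose and of any other induced protein cannot be told apart. The sources used here do not say which strain isolates were sequenced. The study reports that arrest and break induction were checked before sequencing, the break by pulsed-field gel electrophoresis of chromosome III. The share of cells with a cut *MAT* was not measured in these libraries.

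In budding yeast the *MAT* locus holds either the α or the a information, which sets the mating type. Unexpressed copies of both lie on the same chromosome at *HML* (α) and *HMR* (a), kept silent by Sir proteins. HO recognises a site at the edge of the mating-type specific sequence. After cutting, the ends are resected, and resection can extend over many kilobases while the break is not repaired. Repair can use a silent copy. The genes beside *MAT* encode unrelated functions, from a TFIID subunit to transporters and mitochondrial proteins, so what they share is their position.

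The recognition site at *MAT* and its silent counterparts are shown first because all distances below are counted from the core of the site at *MAT*. The capitals mark the core CGCAACA, and each sequence is the plus strand of R64. These are reference sequences, and the reference carries the α information at *MAT*.

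MAT, chrIII:200837-200871: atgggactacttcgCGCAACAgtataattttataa
HML, chrIII:13677-13711: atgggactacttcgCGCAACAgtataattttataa
HMR, chrIII:294365-294399: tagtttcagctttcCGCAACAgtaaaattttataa

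The 35 bases at *MAT* and *HML* were identical, and 25 of 35 positions were equal between *MAT* and *HMR*. The core alone is not specific, with 1 match in *MAT*, 30 on chromosome III and 919 in the genome, counting both strands. At *MAT* it occupies chrIII:200851-200857, inside *MATALPHA1*, whose coding sequence runs on for 112 bases after it. The neighbouring genes reach into the locus, which is annotated from base 198671 to base 201177. On the centromere side, the start of *BUD5* lies inside it and shares 4 bases, in capitals in the first sequence, with the end of *MATALPHA2*. On the telomere side, the stop codon of *TAF2*, in capitals in the second sequence, ends 317 bases from the core. Both sequences are on the minus strand.

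BUD5 start, chrIII:199533-199562: caaagaagaaagaATGAgcccgaaaaacaa
TAF2 end, chrIII:201162-201191: aatgatgctaagaatTGAttgtttgcttga

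Of the 41 genes, 35 had at least 10 reads in total and were tested. The other 6 were *MATALPHA1*, YCR049C, and 4 genes without a read in any library, which were YCR038W-A, YCR041W, YCR045W-A and YCR047W-A. YCR041W overlaps *TAF2* by 70 bases. A count of 0 allows up to 3 reads, or 0.398 to 0.584 CPM (reads scaled to an equal effective library size), in a library, for counting error only. Averaged over all libraries, 31 of the tested genes reached 10 CPM, and the ones below it were YCR022C, YCR025C, *MATALPHA2* and YCR050C. In each gene, 100-base windows were compared with the rest of the genome, and this limits what could be counted. All windows of *MATALPHA1* and *MATALPHA2* also occur elsewhere, as do 71.8% of those of YCR041W and 29.6% of those of *BUD5*. The share was 0 for every other gene found in the annotation.

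Libraries held 5442935 to 7289514 reads assigned to genes. In WT cells *HO* was at 40.3 ± 3.22 CPM in arrest and 4564 ± 215 CPM after induction, and in *rad30Δ* cells at 38.2 ± 2.27 and 4196 ± 501 CPM (SD, n = 3). *SMC1* reads were also higher after induction, at 180.7 ± 11.4 and 5574 ± 185 CPM in WT cells and 153.1 ± 10.7 and 3992 ± 450 CPM in *rad30Δ* cells (SD, n = 3). *RAD30* had 0 reads in each *rad30Δ* library. Replicate 3 of the *rad30Δ* cells after DSB induction stood apart, with a TMM factor of 0.8734 against 0.9706 to 1.047 in the other 11 libraries, and 0.205% of its reads on the mitochondrial genome against 0.0114 to 0.0744%. Values without this library are given beside the calls of flanking genes that involve its group. They are also given beside the medians by distance and the counts by direction. Genes outside the region are given with all libraries only. The labels do not say whether replicates were separate cultures, so p-values measure only the spread between these libraries, which may be technical. In RNA from whole cultures, fewer cells expressing a gene and less RNA per cell cannot be told apart.

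The flanking genes covered a wide range of levels. Per kb of coding sequence, *PMP1*, which encodes a small regulatory subunit of the plasma membrane proton pump, had the highest level at 3085 CPM per kb over all libraries. *RPS14A*, encoding a protein of the small ribosomal subunit, followed with 2690 CPM per kb, and YCR024C-B with 2165 CPM per kb. At the low end, *BPH1*, encoding a BEACH domain protein, had 10.97 CPM per kb and *BUD5*, the exchange factor for the bud site GTPase Rsr1, had 7.84 CPM per kb. *MATALPHA2* had 0.401 CPM per kb, the lowest of the tested genes in the region. The median over the 35 tested genes was 76.3 CPM per kb, against 63.4 CPM per kb over 5884 tested genes with a coding length, and 20 of the 35 (57.1%) lay above that value. *TAF2*, next to the cut site, was at 35.5 CPM per kb.

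**Figure D1:**
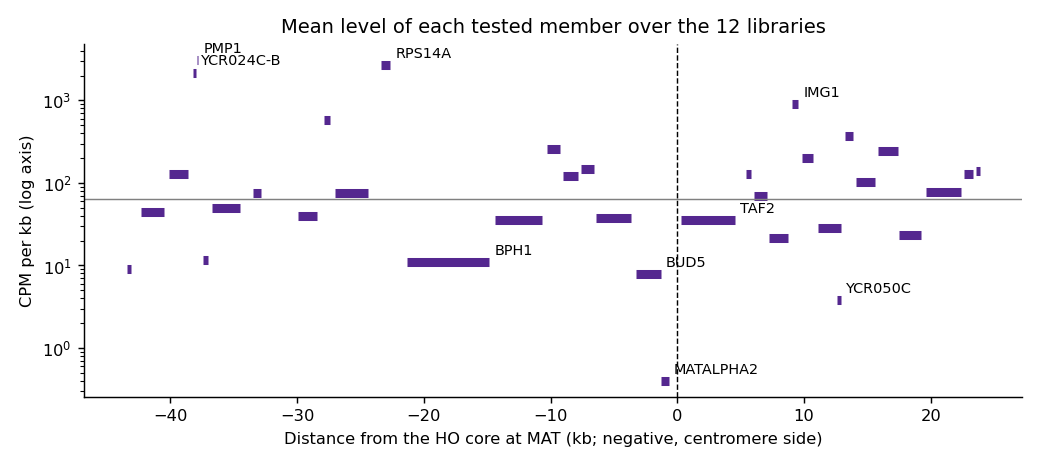
Mean level of each of the 35 tested genes over the 12 libraries, in CPM per kb of coding sequence on a log axis, against the position of the coding sequence relative to the HO core (dashed line). The bars span the coding sequences and the grey line is the median of 63.4 CPM per kb over all tested genes with a coding length; levels reach from 0.401 (*MATALPHA2*) to 3085 (*PMP1*).

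The α genes that the reference carries at the break were nearly unread. *MATALPHA1*, the activator of α-specific genes, had 0 reads in all WT libraries, 0, 2 and 2 reads in the arrested *rad30Δ* libraries and 0 reads in the *rad30Δ* libraries after DSB induction. Its 528 bases are identical to those of *HMLALPHA1*, so the reads of both were pooled. The pooled count was 0 in each of the 6 WT libraries. It was 7, 6 and 7 in arrested *rad30Δ* cells and 0, 0 and 1 after DSB induction. Arrested *rad30Δ* libraries thus did not overlap with any other group. Scaled to effective library size, the 20 reads before and 1 read after induction gave a ratio of 18.3, with a 95% counting interval of 2.93 to 760 that covers counting error only.

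*MATALPHA2* encodes the repressor of a-specific genes, and its 633 bases are identical to those of *HMLALPHA2*. The pooled α2 reads were 1, 0 and 1 in arrested WT cells and 3, 1 and 0 after DSB induction. In *rad30Δ* cells they were 2, 4 and 5 before and 14, 2 and 7 after induction, and the groups overlapped. *MATALPHA2* alone passed no test. The treatment of reads with several matches during counting is not stated, so these counts may hold only part of the α transcripts.

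The a1 transcript has no copy at *MAT* in the reference, and its reads could be placed only on *HMRA1*. In arrested WT cells *HMRA1* had 83.9, 82.7 and 84.3 CPM, and after DSB induction 54.2, 47.8 and 56.4 CPM. In *rad30Δ* cells it had 0.461 to 1.078 CPM in all 6 libraries. *HMRA1* fell in WT cells by 0.66 on the log2 scale after DSB induction (edgeR's quasi-likelihood test, Benjamini-Hochberg adjusted p = 2.131e-04, used for all calls below). By sequence, reads from *MAT* and *HMR* cannot be told apart here. The WT libraries carried a-type markers, as described below, so their a1 reads may come largely from *MAT* at the break, which was not tested. The a1 coding sequence at *HMR* ends 58 bases before the core of the site.

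Genes that these regulators act on differed between the strains in the same way. All 4 α-specific genes examined (*STE3*, *MF(ALPHA)1*, *MF(ALPHA)2* and *SAG1*) were higher in arrested *rad30Δ* cells than in arrested WT cells, with a median log2 difference of 5.01. All 7 a-specific genes examined (among them *STE2* and *BAR1*) were lower, with a median of -3.56. The strains thus carried opposite mating-type markers, and a strain difference near *MAT* cannot be told apart from one of mating type or of *RAD30*. After DSB induction all 4 α-specific genes fell in *rad30Δ* cells (median -2.03), and 3 of the 4 also fell in WT cells (median -0.44). The difference in response was called for 3 of the 4, all lower in *rad30Δ* cells. Of the 7 a-specific genes, 2 fell in WT cells (median -0.42) and 0 in *rad30Δ* cells (median 0.13).

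**Figure D2:**
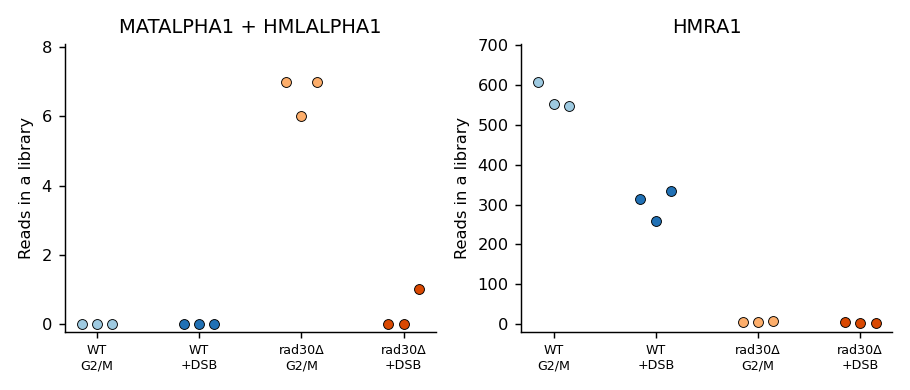
Reads per library summed over the identical α1 genes *MATALPHA1* and *HMLALPHA1* (left) and of *HMRA1* (right) in the 4 groups, with 1 point per library. The α1 reads were 6 or 7 in arrested *rad30Δ* cells and at most 1 in every other library, and *HMRA1* reads were 548 to 609 in arrested WT cells and 258 to 335 after DSB induction.

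The first question was whether the genes around *MAT* changed after DSB induction in WT cells. In WT cells 4 of the 35 tested genes fell (6.29% of all 6490 tested) and 0 rose (6.07% of all). The 4 genes were *ELO2*, *RSC6*, *CTR86* and *PWP2*, and none of them was next to the break: they lie 9.22, 14.14, 17.52 and 19.6 kb from the core. The a1 reads, which may come from *MAT*, are counted outside the 35 genes. At an unadjusted p under 0.05, 1 gene was higher and 6 were lower. The share of all genes under this unadjusted limit was not computed, here or below. DESeq2 called 0 higher and 5 lower, against 7.29% and 8% of all genes. The median log2 fold change of the 35 genes was -0.03, against 0.00379 over all genes.

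*PWP2* encodes a subunit of the UTP-B complex, which acts early in assembly of the small ribosomal subunit. It had 247.8, 222.2 and 256.4 CPM in arrested WT cells and 173.5, 187.5 and 184.5 CPM after DSB induction. All 3 libraries after induction lay below all arrested ones. The log2 fold change was -0.41 (adjusted p = 0.0184). Its 5 partners in UTP-B were all below 0 after induction (median -0.28), and 2 of them, *UTP13* and *DIP2*, fell.

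*CTR86* had 41.8, 40.1 and 42.2 CPM in arrested WT cells and 30.5, 33.0 and 34.7 CPM after induction. *RSC6*, encoding a subunit of the RSC chromatin remodelling complex, had 141.5, 156.8 and 157.6 CPM before and 121.2, 124.7 and 118.1 CPM after. In both genes the groups did not overlap. *CTR86* fell by 0.34 (adjusted p = 0.0461) and *RSC6* by 0.32 (adjusted p = 0.0348) on the log2 scale. Among 13 other RSC genes, 0 were called in WT cells.

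*ELO2* encodes an elongase for the very long fatty acids of sphingolipids. It had 280.8, 271.1 and 274.0 CPM in arrested WT cells against 229.6, 231.6 and 215.2 CPM after induction, again without overlap. It fell by 0.29 on the log2 scale (adjusted p = 0.0141). Its paralog *ELO1*, located elsewhere, had a log2 fold change of 0.18 and was not called. These WT calls depended on single libraries, as did the share over all genes. Without 1 library at a time, 0 to 5 genes fell. None were left without replicate 3 of either WT group, and 1 or 2 without any of the other WT libraries. Without replicate 3 of the arrested and of the induced WT group, 2.45% and 2.02% of all genes fell. Without any of the other WT libraries the share was 2.59% to 3.52%.

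Other genes had separate groups without passing the test. Groups did not overlap in 11 genes that were lower and 3 that were higher after induction in WT cells, against 22.9% and 22.8% of all genes. *RHB1*, which encodes the yeast Rheb GTPase, had 46.0, 55.5 and 54.6 CPM before and 40.5, 39.3 and 35.9 CPM after (log2 fold change -0.43, adjusted p = 0.063). It was called with a block for replicate number (adjusted p = 0.0189) and by DESeq2. *FEN2*, encoding the pantothenate transporter, had 65.9, 70.02 and 66.5 CPM before and 53.6, 61.3 and 44.8 CPM after (-0.34, adjusted p = 0.195), and was called with the block as well (adjusted p = 0.0245). On the higher side, *TAH1*, encoding a subunit of the R2TP complex that works with Hsp90, had 46.0, 46.2 and 45.6 CPM before and 56.4, 49.8 and 53.6 CPM after (0.21, adjusted p = 0.095). *RPS14A* was at 1018 ± 41.0 CPM before and 1135 ± 55.5 CPM after (SD, n = 3) and was not called (0.16, adjusted p = 0.245), while its paralog *RPS14B* on another chromosome fell (-0.27, adjusted p = 0.0337).

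**Figure D3:**
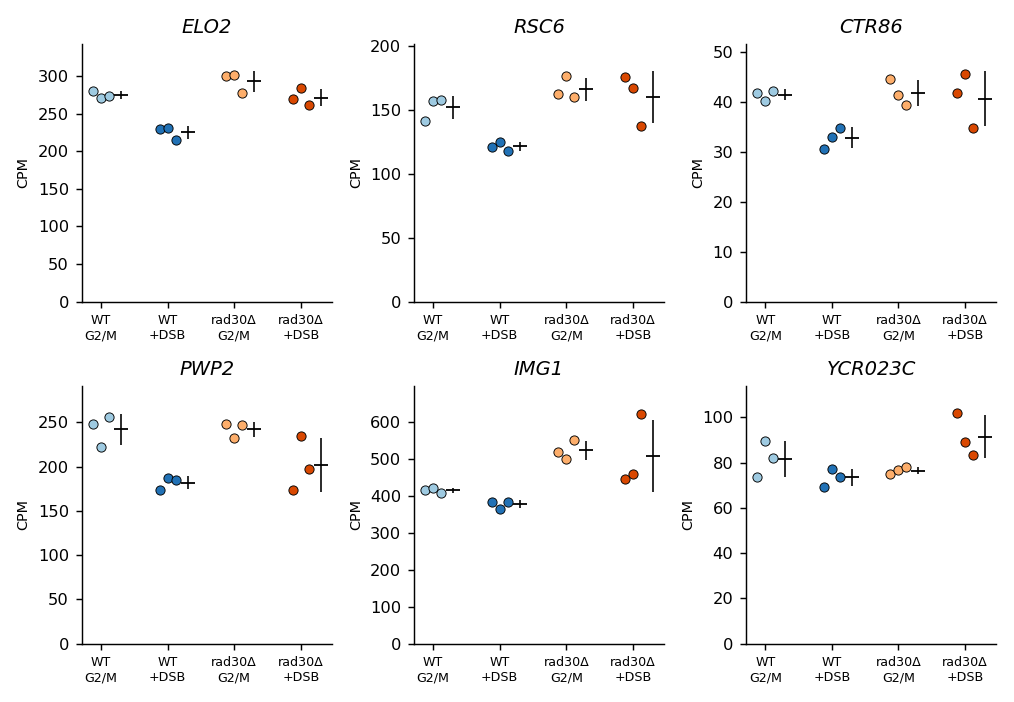
CPM of 6 flanking genes in each library of the 4 groups, with the mean and SD (n = 3) to the right of the points; each axis starts at 0. *ELO2*, *RSC6*, *CTR86* and *PWP2* fell in WT cells after DSB induction, and *IMG1* shows the high replicate 3 of *rad30Δ* cells after induction at 621 CPM.

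The same comparison in *rad30Δ* cells called another gene, and the count was near the share over all genes. In *rad30Δ* cells 1 of the 35 genes fell (2.65% of all tested) and 0 rose (3.68% of all). At an unadjusted p under 0.05, 2 genes were higher and 3 lower. DESeq2 called 0 higher and 1 lower, against 5.55% and 3.54% of all genes. The median log2 fold change of the 35 genes was -0.04, against 0.00426 over all genes.

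The gene that fell was *TAF2*, an essential subunit of the general transcription factor TFIID that contacts the core promoter. In WT cells it had 152.1, 155.0 and 157.3 CPM in arrest and 154.0, 163.2 and 159.4 CPM after DSB induction. In *rad30Δ* cells it had 146.5, 154.0 and 181.0 CPM in arrest and 117.5, 127.4 and 133.2 CPM after induction. The 3 *rad30Δ* libraries after induction were thus lower than the other 9, without overlap. The log2 fold change was -0.35 (SE 0.081, adjusted p = 0.0237) in *rad30Δ* cells and 0.04 (adjusted p = 0.788) in WT cells. Of all 6490 genes, 6.89% had a change as low or lower in *rad30Δ* cells.

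The difference between the strains in the response of *TAF2* was -0.39 on the log2 scale, and this interaction was not called (unadjusted p = 0.00525, adjusted p = 0.196). Without the *rad30Δ* replicate 3 that stood apart, *TAF2* fell by 0.39 (adjusted p = 0.0133). The call was lost without replicate 3 of the arrested *rad30Δ* cells or without replicate 1 after induction, where adjusted p reached 0.0757, and with the 6 *rad30Δ* libraries fitted alone (adjusted p = 0.216). Of 13 other TFIID genes, 0 were called in *rad30Δ* cells, with log2 fold changes from -0.26 to 0.39 and a median of -0.08.

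Without *rad30Δ* replicate 3 after induction, 3 genes fell and 1 rose, against 4.71% and 4.96% of all genes. *SLM5*, encoding the mitochondrial asparaginyl-tRNA synthetase, and *IMG1*, encoding a protein of the large mitochondrial ribosomal subunit, then fell by 0.38 and 0.21 on the log2 scale (adjusted p = 0.00631 and 0.0473). YCR023C, encoding a predicted membrane transporter, rose by 0.32 (adjusted p = 0.0365). With all libraries these 3 genes were not called. *SLM5* had 176.9 and 170.9 CPM in replicates 1 and 2 after induction and 254.2 CPM in replicate 3. *THR4*, which encodes threonine synthase, had 368.4 and 370.8 CPM in replicates 1 and 2 and 673.7 CPM in replicate 3. Of 4 other genes of the pathway from aspartate to threonine, 0 were called after induction in either strain.

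In *rad30Δ* cells groups did not overlap in 2 lower and 3 higher genes, against 10.5% and 11.3% of all genes. Beside *TAF2*, the lower one was *SNT1*, encoding a subunit of the Set3 deacetylase complex. *SNT1* had 136.4, 135.0 and 131.7 CPM in arrest and 121.6, 124.2 and 126.5 CPM after induction (log2 fold change -0.11, adjusted p = 0.263). The higher ones were YCR023C, *ARE1* and *YIH1*. *ARE1*, encoding a sterol acyltransferase, had 37.9, 45.4 and 44.2 CPM in arrest and 47.9, 52.0 and 68.7 CPM after induction (0.39, adjusted p = 0.091). YCR050C lies partly within *ARE1* on the other strand, and whether counting used strand is not given.

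The 4 genes that fell in WT cells were not called in *rad30Δ* cells, and none of the differences in response was called. *PWP2* had 247.8, 232.1 and 246.7 CPM in arrested *rad30Δ* cells and 173.7, 234.1 and 197.4 CPM after induction (log2 fold change -0.26, adjusted p = 0.139). On the same scale *RSC6* had -0.05 (adjusted p = 0.766), *CTR86* -0.03 (adjusted p = 0.874) and *ELO2* -0.11 (adjusted p = 0.346). Without the *rad30Δ* replicate 3 that stood apart, the signs of *RSC6* (0.04) and *CTR86* (0.06) turned, and neither was called. Their interaction values were 0.15 for *PWP2*, 0.27 for *RSC6*, 0.30 for *CTR86* and 0.18 for *ELO2*, with adjusted p from 0.375 to 0.677. Over the 35 genes the interaction was called in 0 higher and 0 lower, against 0% and 0.0616% of all genes. At an unadjusted p under 0.05 there were 2 higher and 1 lower. DESeq2 called 0, against 0.555% higher and 0.462% lower of all genes.

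The next question was whether changes followed distance from the break. *TAF2* and *BUD5* border the mating-type genes, and *PHO87*, encoding a phosphate transporter, comes next on the centromere side. *BUD5*, 1.31 kb away, had 15.3, 17.2 and 16.5 CPM in arrested WT cells and 15.5, 16.3 and 12.6 CPM after induction. In *rad30Δ* cells *BUD5* had 12.3, 15.01 and 15.6 CPM before and 17.5, 12.1 and 15.6 CPM after. The groups overlapped in both strains, with log2 fold changes of -0.14 (adjusted p = 0.597) and 0.07 (adjusted p = 0.828). *PHO87*, 3.67 kb away, had 106.8, 110.3 and 111.3 CPM before and 98.1, 97.1 and 97.0 CPM after in WT cells, which did not overlap (-0.17, adjusted p = 0.255). In *rad30Δ* cells it had 108.7, 101.4 and 91.9 CPM before and 127.5, 99.5 and 99.5 CPM after (0.11, adjusted p = 0.506).

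*RBK1*, encoding ribokinase, lies 6.56 kb away and was at 143.0 ± 10.98 and 140.3 ± 2.51 CPM in WT cells, and at 159.9 ± 4.67 and 154.3 ± 5.82 CPM in *rad30Δ* cells, before and after induction (SD, n = 3). On the telomere side, YCR043C at 5.4 kb was at 51.0 ± 4.40 and 45.3 ± 5.40 CPM in WT cells and at 55.7 ± 6.12 and 47.7 ± 6.76 CPM in *rad30Δ* cells (SD, n = 3). *PER1*, which remodels GPI anchors, lies at 6.02 kb, and *RRT12*, which encodes a subtilisin-like protease, at 7.28 kb. *PER1* was at 82.1 ± 5.15 and 71.1 ± 1.36 CPM in WT cells and at 77.4 ± 8.08 and 71.5 ± 8.21 CPM in *rad30Δ* cells (SD, n = 3). *RRT12* was at 31.4 ± 0.373 and 29.2 ± 0.515 CPM in WT cells and at 33.4 ± 0.670 and 31.3 ± 3.51 CPM in *rad30Δ* cells (SD, n = 3). All of these means were lower after induction in both strains, and none of the differences was called.

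**Figure D4:**
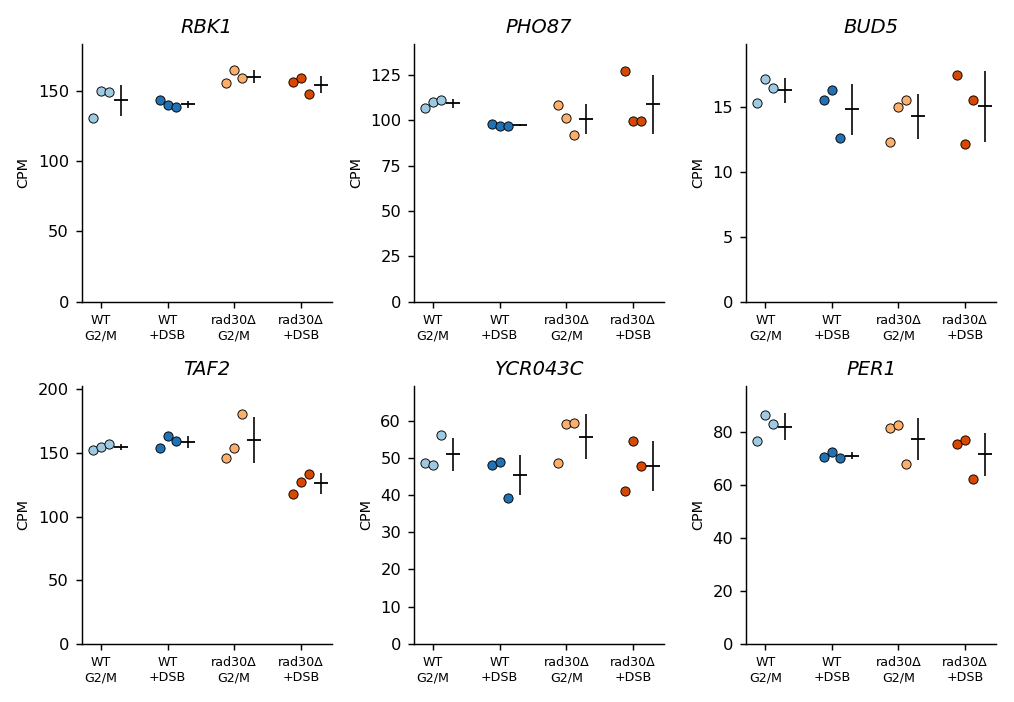
CPM in each library for 6 of the genes nearest to the HO site, *RBK1*, *PHO87* and *BUD5* on the centromere side and *TAF2*, YCR043C and *PER1* on the telomere side, with the mean and SD (n = 3) to the right of the points and each axis from 0. *TAF2* lies between 117.5 and 133.2 CPM in *rad30Δ* cells after DSB induction and at 146.5 CPM or more in the other 9 libraries.

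By distance, the 4 tested genes within 5 kb had medians on the log2 scale of -0.051 in WT cells and 0.095 after induction in *rad30Δ* cells. One of the 4 is *MATALPHA2*, with few reads that all match elsewhere too, and the medians of the other 3 were -0.14 and 0.075. Distances are those of the reference with α at *MAT*, while the WT libraries carried a-type markers, so *MATALPHA2* may be absent from *MAT* there. From 5 to 10 kb, 7 of 8 genes were below 0 in WT cells (median -0.12) and 8 of 8 in *rad30Δ* cells (median -0.10), and 1 of these, *ELO2* in WT cells, was called. From 10 to 20 kb the medians of 9 genes were -0.02 and -0.05, and from 20 to 45 kb those of 14 genes were 0.02 and 0.000136. Without the *rad30Δ* library that stood apart, the 4 medians in *rad30Δ* cells, from near to far, were 0.11, -0.06, -0.02 and 0.05. Over all genes tested, 3198 of 6490 were below 0 in WT and 3190 in *rad30Δ* cells. Across the 31 genes that reached 10 CPM, Pearson's r between distance and log2 fold change was 0.02 in WT and 0.21 in *rad30Δ* cells, and Spearman's rho was 0.10 and 0.26. With all 35 tested genes r was -0.15 and -0.10, and rho 0.075 and 0.14. These describe genes measured in the same libraries, which are not independent replicates.

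By direction of transcription, 14 tested genes point toward the site and 21 away from it. Of those pointing toward it, 9 were below 0 in WT cells and 13 in *rad30Δ* cells (median -0.10). Of those pointing away, 10 were below 0 in each strain. Only *TAF2* among the 13 was called. The difference in response between the strains was below 0 in 7 of the 14 genes pointing toward the site and above 0 in 7 (median -0.00473). In arrest, 12 of these 14 had a log2 difference above 0 in *rad30Δ* relative to WT cells. Arrested *rad30Δ* cells are also the baseline of the *rad30Δ* response. Direction and distance are linked, since every tested centromere-side gene beyond 20 kb points away. Without the library that stood apart, 12 of the 14 and 8 of the 21 were below 0 in *rad30Δ* cells. On the rest of chromosome III, 127 genes were tested. In WT cells 8 rose and 10 fell, against 6.07% and 6.29% of all genes. Among the 10 was *HMRA1*, whose reads in WT cells may come from *MAT*. In *rad30Δ* cells 3 rose and 5 fell, against 3.68% and 2.65% of all genes.

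**Figure D5:**
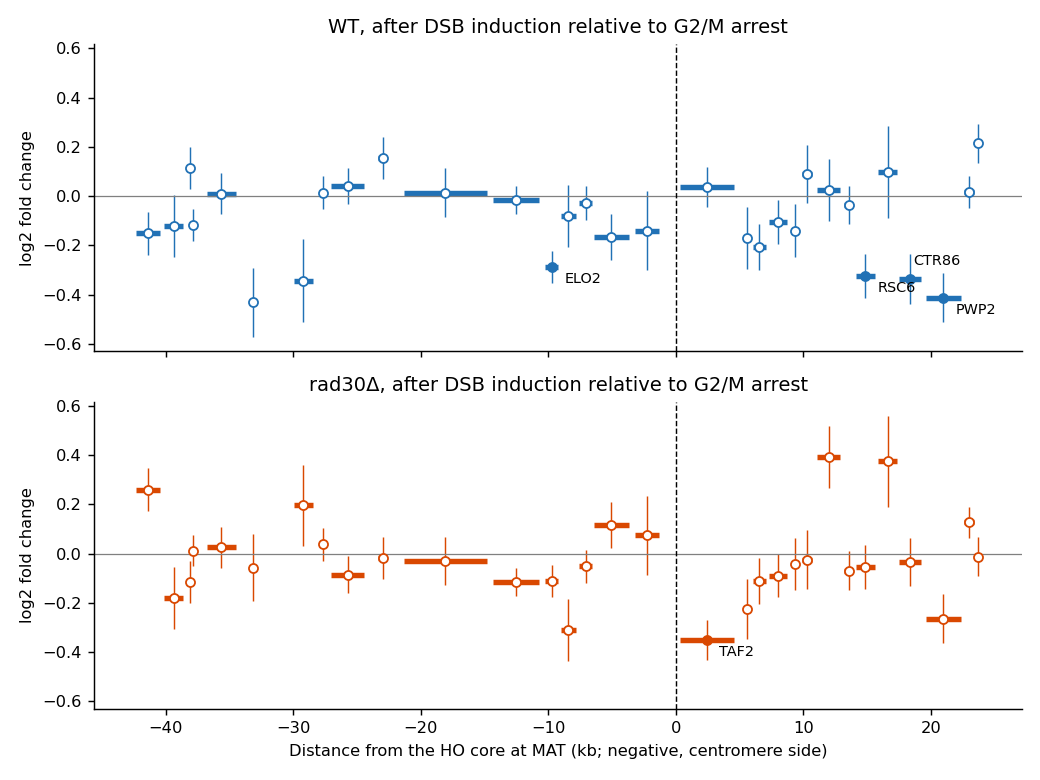
Log2 fold change after DSB induction against distance from the HO core (dashed line) for the 31 flanking genes averaging 10 CPM or more, in WT cells (top) and *rad30Δ* cells (bottom). Horizontal bars span the coding sequences, vertical bars are 1 SE and filled points passed an adjusted p of 0.05: *ELO2*, *RSC6*, *CTR86* and *PWP2* in WT cells and *TAF2* in *rad30Δ* cells.

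The strains were then compared at each stage, with the limits on strain and mating type given above. In G2/M arrest, 0 of 35 genes were higher and 0 lower in *rad30Δ* than in WT cells, against 4.71% and 6.1% of all genes. At an unadjusted p under 0.05 there were 5 higher and 1 lower. DESeq2 called 2 higher (*SLM5* and *IMG1*) and 0 lower, against 6.09% and 6.75% of all genes. *SLM5* had 181.2, 175.8 and 161.9 CPM in WT and 218.6, 221.2 and 240.4 CPM in *rad30Δ* cells (log2 difference 0.39, adjusted p = 0.068). *IMG1* had 416.3, 422.0 and 409.1 CPM in WT and 519.5, 500.8 and 550.9 CPM in *rad30Δ* cells (0.33, adjusted p = 0.067). The groups of neither gene overlapped, as in 6 higher and 2 lower genes in all (15.7% and 16.6% of all genes). The library that stood apart is in neither arrested group, but it enters the shared estimate of the spread. Without it, *SLM5* and *IMG1* passed (adjusted p = 0.00093 and 0.000745), and *ARE1* was lower in *rad30Δ* cells (-0.35, adjusted p = 0.0175).

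After DSB induction, 5 genes were higher (11.6% of all tested) and 3 lower (11.8% of all) in *rad30Δ* cells, relative to WT cells. At an unadjusted p under 0.05 there were 9 higher and 3 lower. DESeq2 called 6 higher, *SLM5* in addition, and 2 lower, without *TAH1*, against 13.2% and 11% of all genes. Without the *rad30Δ* library that stood apart there were 7 higher and 3 lower, against 15% and 16% of all genes. Groups did not overlap in 8 higher and 3 lower genes, against 17.8% and 18.8% of all genes. This comparison shares the WT libraries after induction with the response of WT cells, so *ELO2*, *RSC6* and *CTR86*, which appear in both, are not independent. The log2 difference was 0.40 for *RSC6* (adjusted p = 0.00754), 0.27 for *ELO2* (adjusted p = 0.0111) and 0.32 for *CTR86* (adjusted p = 0.0393). Without the *rad30Δ* library that stood apart, the same differences were 0.50, 0.30 and 0.41 (adjusted p = 0.000241, 0.00422 and 0.00482). With all libraries, 1 of 13 other RSC genes was higher, *RSC8*, and 2 were lower, *STH1* and *RTT102*.

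*IMG1* had 384.6, 364.5 and 382.6 CPM in WT and 445.2, 460.7 and 621.0 CPM in *rad30Δ* cells after induction, and was higher by 0.43 (adjusted p = 0.0122), or by 0.26 without replicate 3 of *rad30Δ* cells (adjusted p = 0.0058). YCR023C had 69.3, 77.1 and 73.8 CPM in WT and 101.7, 89.2 and 83.3 CPM in *rad30Δ* cells (0.32, adjusted p = 0.0198, and 0.38 without that library, adjusted p = 0.00594). The groups of neither gene overlapped.

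*TAF2* was the largest of the 3 lower genes in size of change (log2 difference -0.34, adjusted p = 0.0113), and -0.38 without replicate 3 of *rad30Δ* cells (adjusted p = 0.00543). Among 13 other TFIID genes, 5 were lower too, *TAF1*, *TAF3*, *TAF6*, *TAF7* and *TAF13*, with a list median of -0.06. *TAH1* was at 53.3 ± 3.29 CPM in WT and 44.8 ± 1.70 CPM in *rad30Δ* cells (-0.25, adjusted p = 0.0388), and YCR024C-B at 632.3 ± 6.76 and 526.1 ± 53.3 CPM (-0.27, adjusted p = 0.0427; SD, n = 3). Without that replicate the differences were -0.27 (adjusted p = 0.0413) for *TAH1* and -0.35 (adjusted p = 0.0041) for YCR024C-B. *TAF2* and *RSC6* kept their calls under all 18 alternatives tried, with adjusted p up to 0.0452 and 0.0411. *CTR86*, *TAH1* and YCR024C-B lost theirs without 7 to 9 of the 12 libraries, each left out in turn. *CTR86* lost its call also with the block (adjusted p = 0.0544), *TAH1* with DESeq2 and YCR024C-B with RLE scaling. With the 6 induced libraries fitted alone, all 6 called genes other than *TAF2* and *RSC6* lost theirs, *ELO2*, *IMG1* and YCR023C with adjusted p = 0.0508, 0.0526 and 0.0586. Leaving out single libraries also ended the call of *ELO2* (WT replicate 3), of *IMG1* (WT replicate 2) and of YCR023C (WT replicate 1 or 3, or *rad30Δ* replicate 1, all after induction), with adjusted p up to 0.059, 0.0507 and 0.0816.

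Grouped by role, the 3 chromatin and transcription genes (*SNT1*, *TAF2* and *RSC6*) had median changes after induction of -0.02 in WT and -0.11 in *rad30Δ* cells on the log2 scale, with 1 called lower in each strain, where 6.29% of all genes in WT and 2.65% in *rad30Δ* cells were called lower. The 8 tested genes for membrane, lipid and transport functions had medians of -0.16 and 0.07, with 1 lower in WT cells. The 7 genes for ribosome assembly, RNA and protein folding had medians of 0.02 and -0.02, with 2 lower in WT cells. One of them, *RRP43*, encodes an exosome subunit and had 142.5, 153.7 and 169.7 CPM in arrested *rad30Δ* cells and 96.3, 150.0 and 129.8 CPM after induction (log2 fold change -0.31, adjusted p = 0.172). Of 8 other exosome genes, 1, *RRP45*, fell in each strain. The 3 mitochondrial genes, the 4 of the bud, cortex and signalling and the 2 metabolic enzymes had 0 calls after induction with all libraries.

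Several genes of the region had close values in all 4 groups. *RIM1*, encoding the mitochondrial single-stranded DNA binding protein, was at 235.5 ± 13.1 CPM in arrested WT and 237.9 ± 1.13 CPM in induced WT cells, and at 229.3 ± 12.5 and 235.6 ± 7.81 CPM in *rad30Δ* cells (SD, n = 3). *NPP1*, encoding a nucleotide pyrophosphatase, had group means between 107.8 and 111.3 CPM. *BPH1* had group means between 70.04 and 72.2 CPM. *YIH1*, which encodes an inhibitor of Gcn2 activation, was at 96.3 ± 1.29 and 97.5 ± 6.43 CPM in WT cells and at 99.9 ± 5.13 and 109.0 ± 2.90 CPM in *rad30Δ* cells (SD, n = 3), and its *rad30Δ* groups did not overlap (log2 fold change 0.13, adjusted p = 0.262). *BUD23*, encoding an rRNA methyltransferase, varied more between *rad30Δ* libraries, with 131.0, 186.2 and 159.8 CPM after induction, and was not called. Among the low genes, YCR022C had 1.39 to 4.63 CPM and YCR025C 4.12 to 5.90 CPM over the 12 libraries.

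Partners and paralogs of the flanking genes, which lie elsewhere, were described by the same test. In *rad30Δ* cells, 0 of 5 UTP-B partners of *PWP2* were called (median -0.19, all below 0), and of 13 RSC partners of *RSC6* 1 fell, *RSC3* (-0.26, adjusted p = 0.0362). Of 6 Set3 complex partners of *SNT1*, 1 rose in each strain, the cyclophilin gene *CPR1* (0.53 in WT and 0.39 in *rad30Δ* cells). Of 6 paralogs, *RPS14B* fell in *rad30Δ* cells as well (-0.44, adjusted p = 0.00279), where *RPS14A* had -0.02. *NPP2* rose in *rad30Δ* cells (0.29, adjusted p = 0.0328), where *NPP1* had 0.03 (adjusted p = 0.889). *PMP2*, *PHO90*, *ELO1* and *ARE2* were not called after induction in either strain.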

How the data were processed

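Poly(A) RNA was sequenced from whole cells treated with zymolyase. Per the labels and the study's methods, the authors trimmed reads with cutadapt, used HISAT2 for alignment to sacCer3 and Picard to remove duplicates, and obtained counts per gene from featureCounts. The deposited table holds these raw counts for 7123 genes. The sources used here give no tool versions, no strandedness and no treatment of reads with several matches. Deposited tables of the authors' own comparisons (DESeq2 fold changes, p-values and FPKM) were not used.

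The analysis ran in R 4.3.3 (edgeR 4.0.16, limma 3.58.1) and Python 3.11.15. The 6490 genes that had 10 or more reads in total were scaled by TMM and fitted over all 12 libraries with 4 group means. Contrasts were tested with edgeR's quasi-likelihood test at a Benjamini-Hochberg adjusted p of 0.05 over all genes. CPM were scaled with TMM factors. Positions and sequences came from RefSeq's R64, the assembly named sacCer3. Alternatives were DESeq2 1.42.0, RLE scaling, filterByExpr, no filter, a replicate block, the libraries of a comparison alone, other distance limits and leaving out each library. Genes named are those at *MAT*, the 4 tested genes nearest on each side, those called in a comparison, and the extremes in level. Other genes of the region shown beside them were chosen after their values were seen, and genes outside the region come from lists of partners, paralogs and mating-type genes. The members and lists were chosen with earlier results of these data known.

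Residuals of libraries with the same number before and after induction correlated over all tested genes at 0.254, 0.202 and 0.39 in *rad30Δ* cells, each over 0.1, and at 0.0636, 0.16 and 0.0374 in WT cells. Over genes averaging 10 CPM they correlated at 0.332, 0.263 and 0.421 in *rad30Δ* cells and at 0.165, 0.234 and 0.11 in WT cells, so that in WT cells the pairing depends on the genes taken. The pairing comes from these data alone, since no source says that a number marks a shared culture.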

Additional observations from a re-analysis of the deposited data

Results flagged for a closer look

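In 3 flanking genes, all libraries after DSB induction lay on one side of the arrested mean in WT cells and on the other side in *rad30Δ* cells. The share of all genes with this pattern was not computed, so the count cannot be read as a trait of the region. The difference in response between the strains was tested for each with edgeR, and none passed. YCR023C was at 81.6 ± 7.94 and 73.4 ± 3.89 CPM in WT cells before and after induction and at 76.5 ± 1.57 and 91.4 ± 9.40 CPM in *rad30Δ* cells (SD, n = 3), a log2 difference in response of 0.41 (adjusted p = 0.197). Without replicate 3 of *rad30Δ* cells after induction it was 0.47 (adjusted p = 0.0573). *SYP1*, which acts in endocytosis and septin organisation, was at 197.3 ± 8.36 and 202.9 ± 4.89 CPM in WT cells and at 200.5 ± 13.7 and 189.1 ± 13.3 CPM in *rad30Δ* cells (SD, n = 3), a difference of -0.13 (adjusted p = 0.642). Its WT replicate 2 after induction, at 197.33 CPM, was barely above the arrested mean. YCR050C, at 0.14 to 2.26 CPM and 1 to 17 reads in a library, had a difference of -1.33 (adjusted p = 0.527).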

How the results depend on the processing

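With the libraries of each comparison fitted alone, 2 genes rose and 9 fell after DSB induction in WT cells (15.8% and 17.1% of all genes), and 0 fell in *rad30Δ* cells (0.504%). In those fits the arrested strains differed in 2 higher genes and 1 lower gene (8.01% and 8.67%), and the induced strains in 1 higher and 1 lower (7.33% and 6.62%). DESeq2 called 2 higher genes between the arrested strains (6.09% of all genes). Leaving out each library in turn gave 0 genes higher and 0 to 5 lower in WT cells. Over all genes 3.09% to 11% were higher and 2.02% to 11.3% lower. In *rad30Δ* cells it gave 0 to 1 higher and 0 to 3 lower (2.18% to 5.87% and 1.19% to 4.97%). Between the arrested strains there were 0 to 2 higher and 0 to 1 lower (2.02% to 8.16% and 3.83% to 8.9%). Between the strains after induction there were 2 to 7 higher and 1 to 3 lower (6.32% to 15% and 7.48% to 16%). The interaction had 0 calls in the region under each alternative run. Without *rad30Δ* replicate 3 after induction it was called higher in 1.17% and lower in 1% of all genes. The median log2 fold change within 10 kb was -0.122 in WT cells (-0.1636 to -0.06737 without single libraries) and -0.070 in *rad30Δ* cells (-0.1032 to -0.02543). Within 5 kb it was -0.05143 and 0.09491. In an alternative chosen after seeing the data, leaving out *MATALPHA2* gave -0.1403 and 0.07494 within 5 kb and -0.1403 and -0.08892 within 10 kb. Mean CPM of *MATALPHA2* without single libraries was 0 to 0.0689 in arrested WT, 0 to 0.2587 in induced WT, 0.07891 to 0.2118 in arrested *rad30Δ* and 0.2714 to 0.906 in induced *rad30Δ* cells, and that of *MATALPHA1* in arrested *rad30Δ* cells 0.1328 to 0.2868. The cause of these shifts was not tested.

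With the replicate block, 6 genes fell in WT cells (8.34% of all genes), *RHB1* and *FEN2* in addition, and 1 in *rad30Δ* cells (3.16%; *TAF2*, adjusted p = 0.0115), while 4 were higher and 3 lower between the strains after induction (12.1% and 12%). The median within 10 kb was -0.1221 in WT and -0.07509 in *rad30Δ* cells with the block.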
